A study of Mus musculus with 2 samples.

Results

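Paralogous clusters of microRNA (miRNA) genes, each with a mir-99/100 gene, a let-7 gene and a mir-125 gene in that order, were followed in the embryonic mouse midbrain. They are Mir99a, Mirlet7c-1 and Mir125b-2 on chromosome 16, Mir100, Mirlet7a-2 and Mir125b-1 on chromosome 9, and Mir99b, let-7e and Mir125a on chromosome 17. These 9 genes were taken from the 1973 genes of the count tables. Let-7e was taken as the reads on the strand opposite the row Gm25927, and the others were all found by name. Midbrains of B6NCrl mice had been collected at embryonic day 16.5 from pooled male and female embryos, with no treatment or mutation, and inserts below 30 nt were sequenced in 2 libraries labelled as biological replicates. The pool of replicate 2 held 37 embryos, and how many embryos made up the other pool is not stated in the labels. The tissue was whole midbrain, so a level cannot be assigned to a cell type, and fewer cells of a type and less RNA per cell cannot be told apart.

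A miRNA is cut from a hairpin precursor and represses messenger RNAs that pair with its seed, bases 2 to 8 from its 5′ end. A polycistron is a primary transcript that carries several such hairpins. The linkage of mir-100, let-7 and mir-125 is ancient and is also found in the fruit fly. In Caenorhabditis elegans, let-7 and the mir-125 homologue lin-4 time developmental transitions. In mammals, let-7 accumulates as cells differentiate, and LIN28 proteins, present in early progenitors, bind let-7 precursors and block their maturation. The mir-125 family rises during neuronal differentiation in mammals, and the mir-99/100 family is known for targeting mTOR and IGF1 receptor transcripts.

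The 5p miRNAs, those cut from the 5′ arm, are shown first because their shared and differing bases decide which genes a read can be assigned to (RefSeq, GRCm38.p6, seeds in capitals).
miR-99a-5p: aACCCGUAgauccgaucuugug
miR-100-5p: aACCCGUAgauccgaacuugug
miR-99b-5p: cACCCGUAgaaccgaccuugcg
let-7c-5p: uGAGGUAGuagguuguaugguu
let-7a-5p: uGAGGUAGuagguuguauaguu
let-7e-5p: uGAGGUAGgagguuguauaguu
miR-125b-5p: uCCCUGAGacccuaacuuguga
miR-125a-5p: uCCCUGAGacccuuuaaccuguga
Within each family the seed was identical. With positions counted from 1 at the 5′ end, miR-100-5p differed from miR-99a-5p by U16A alone, and miR-99b-5p differed from miR-99a-5p by A1C, U11A, U16C and U21C. The let-7 miRNAs were as close, with let-7a-5p differing from let-7c-5p by G19A and let-7e-5p from let-7a-5p by U9G. The first 13 bases of miR-125b-5p and miR-125a-5p were the same, and miR-125a-5p was the longer of the pair at 24 nt against 22 nt.

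The sequences split the genes into those with a 5p miRNA of their own and those without. The 5p sequences of Mir99a, Mir100, Mir99b, let-7e and Mir125a each belonged to 1 gene. Those of the other 4 genes belonged to 2 genes each. Mir125b-1 and Mir125b-2 encode the same miR-125b-5p, let-7c-5p is also encoded by Mirlet7c-2, and let-7a-5p by Mirlet7a-1. The hairpins of Mirlet7c-1 (chr16:77599657-77599750, plus strand) and Mirlet7c-2 (chr15:85706603-85706697, plus strand), and those of Mirlet7a-2 (chr9:41536716-41536811, plus strand) and Mirlet7a-1 (chr13:48538179-48538272, minus strand), are printed to show where the copies have the same bases, with the longest run shared by each pair in capitals.
Mirlet7c-1: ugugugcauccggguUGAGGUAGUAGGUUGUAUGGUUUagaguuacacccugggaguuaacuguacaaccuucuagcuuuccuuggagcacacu
Mirlet7c-2: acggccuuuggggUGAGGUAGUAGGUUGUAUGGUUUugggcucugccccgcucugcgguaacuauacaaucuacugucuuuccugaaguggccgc
Mirlet7a-2: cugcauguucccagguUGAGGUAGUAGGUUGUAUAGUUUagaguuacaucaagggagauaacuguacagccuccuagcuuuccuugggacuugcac
Mirlet7a-1: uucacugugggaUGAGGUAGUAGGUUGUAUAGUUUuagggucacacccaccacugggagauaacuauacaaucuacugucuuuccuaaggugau
In both pairs the run was 23 bases long, in hairpins of 94 to 96 nt, and held the whole 22-base 5p miRNA and 1 base beyond it, so a read that ends inside it matches both genes. For the cluster genes, the miRNAs of the 3′ arm did separate the copies.
let-7c-1-3p: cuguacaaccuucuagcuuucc
let-7a-2-3p: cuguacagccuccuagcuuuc
miR-125b-2-3p: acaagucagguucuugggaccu
miR-125b-1-3p: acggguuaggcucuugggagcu
Each of these 3p sequences belonged to 1 gene, whereas let-7c-2-3p, of Mirlet7c-2 outside the clusters, belonged to 2 genes. The deposited counts are per gene and do not separate the arms.

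The clusters have the same gene order and different spacing (GENCODE M21, mm10, all 9 hairpins on the plus strand). On chromosome 16, Mir99a (77598936 to 77599000) and Mirlet7c-1 (77599657 to 77599750) lie 656 bases apart, and Mir125b-2 (77646273 to 77646343) follows after 46522 bases. Each is in an intron of the noncoding host gene Mir99ahg, and Mir125b-2 also overlaps an exon of C130023A14Rik. On chromosome 9, Mir100 (41531425 to 41531504) and Mirlet7a-2 (41536716 to 41536811) are separated by 5211 bases, and Mir125b-1 (41581926 to 41582002) lies 45114 bases farther on. These hairpins are in introns of the noncoding genes 3110039I08Rik and Gm49317, and Mir125b-1 also overlaps an exon of Gm28119. The chromosome 17 cluster spans only 692 bases within Spaca6, a protein-coding gene, with Mir99b (17830188 to 17830257) and Mirlet7e (17830352 to 17830444) in introns and Mir125a (17830812 to 17830879) overlapping an annotated exon.

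**Figure D1:**
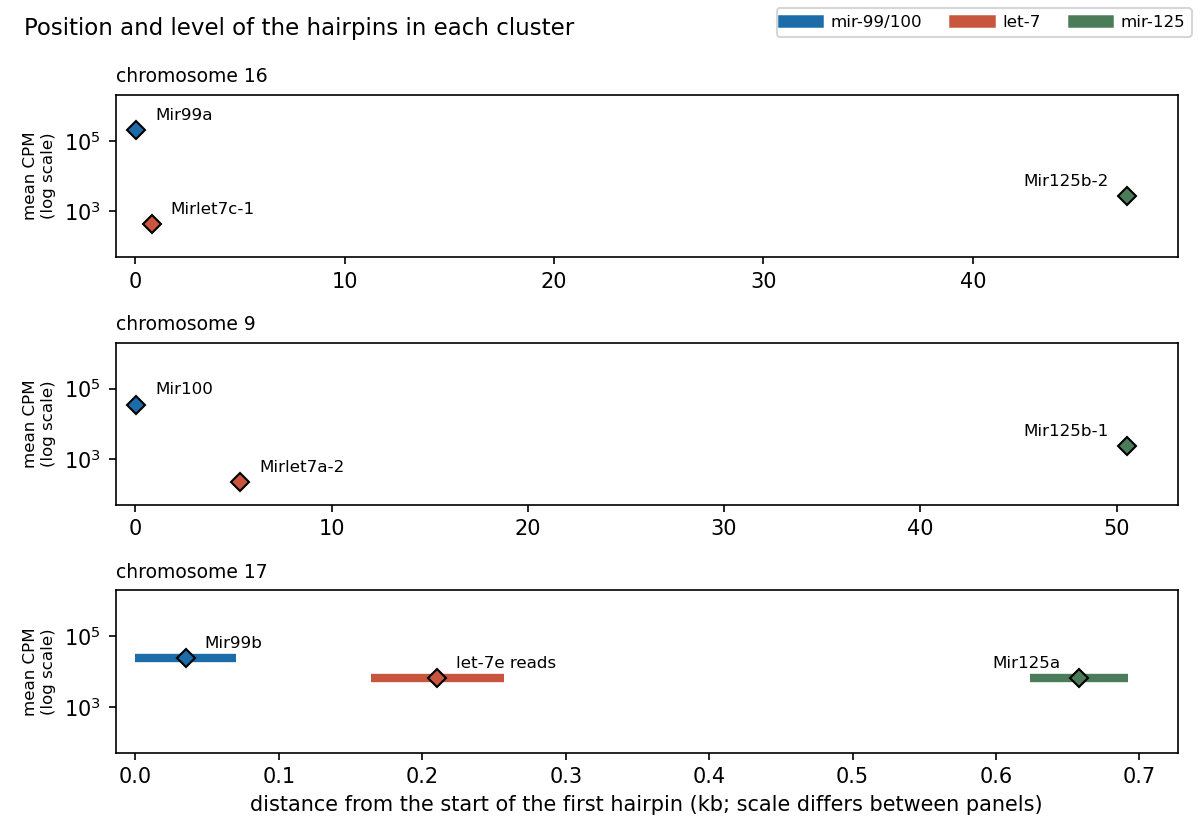
Mean level of each hairpin (CPM, log scale, mean of 2 libraries) against its distance from the start of the first hairpin of its cluster (kb), with 1 panel per cluster and its own distance scale; diamonds stand at hairpin centres and thick lines cover the hairpins. The mir-99/100 gene comes first and is the highest by counted reads in each panel, and the chromosome 17 cluster covers 692 bases against 47408 on chromosome 16 and 50578 on chromosome 9.

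Depth was similar in both libraries, at 6151299 sense-strand miRNA reads in replicate 1 and 5312642 in replicate 2. Levels are CPM, reads scaled to a library total of 1000000 such reads, and were not divided by length, since a read covers 1 mature miRNA and the 5p miRNAs measured 22 to 24 nt. Reads that mapped to several places numbered 4816290 in replicate 1 and 4391928 in replicate 2 and are in none of the gene counts. The neural marker list, with 9 of its 10 genes in the tables and none at 0, summed to 25853 and 24638 CPM, led by Mir137 at 15865 and 14350 CPM, while none of the mir-124 copies passed 5.36 CPM. Endothelial Mir126a stood at 23067 and 24810 CPM, and of the 4 muscle genes in the tables Mir1a-1, Mir133a-1 and Mir133a-2 had 0 reads and Mir206 had 112 and 94 reads (18.2 and 17.7 CPM). The mir-124, Mir1a and Mir133a markers are listed as numbered copies, and reads that map to several copies are not counted. Their low counts and counts of 0 therefore do not show that these miRNAs were absent. Let-7e was read from the strand opposite Gm25927 (chromosome 17, 17830343 to 17830459, minus strand), a row that covers the Mirlet7e hairpin. That row had 39725 and 34261 reads on the opposite strand and 0 on its own, where 3 reads would be 0.488 and 0.565 CPM.

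Together the 9 genes held 27.8% ± 0.73 of the counted miRNA reads (SD, n = 2), counting let-7e in the total. Nearly all of it came from the mir-99/100 family, which made up 93.3% of the reads of the 9 genes in replicate 1 and 93.4% in replicate 2. The mir-125 family gave 4.10% and 4.08%, and the let-7 family 2.57% and 2.50%. By cluster, chromosome 16 held 72.6% and 73.8% of these reads, chromosome 9 held 13.8% and 13.2%, and chromosome 17 held 13.5% and 13.0%. The chromosome 9 and 17 clusters thus reached nearly the same sum of counted reads, 37778 ± 250.0 and 37142 ± 139 CPM, without overlap between their ranges and with a different split among their genes. Reads that map to several places are in none of these sums. Mirlet7c-1, Mirlet7a-2 and both miR-125b genes share their 5p miRNA with a further gene, and no chromosome 17 gene does. The family and cluster sums may therefore be unequally complete.

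In the mir-99/100 family, Mir99a reached 196414 CPM in replicate 1 and 207577 CPM in replicate 2, from 1208201 and 1102781 reads. Mir100 stood at 35353 and 35131 CPM, and Mir99b at 24749 and 23790 CPM. The ranges of these genes did not overlap. Mir99a exceeded Mir100, its neighbour in sequence by a single base, 5.56-fold in replicate 1 and 5.91-fold in replicate 2, and exceeded Mir99b 7.94-fold and 8.73-fold. Mir100 exceeded Mir99b 1.43-fold and 1.48-fold. In the order of all genes, Mir99a was first in both libraries, Mir100 had rank 5 by mean level and Mir99b rank 9.

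In the mir-125 family, Mir125a was the highest by counted reads, at 6034 and 6805 CPM. Mir125b-2 stood at 2845 and 2614 CPM, and Mir125b-1 at 2403 and 2232 CPM. The pair that shares miR-125b-5p was thus close, Mir125b-2 over Mir125b-1 being 1.18-fold in replicate 1 and 1.17-fold in replicate 2, although their ranges did not overlap. Mir125a exceeded Mir125b-2 2.12-fold and 2.60-fold, and Mir125b-1 2.51-fold and 3.05-fold.

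In the let-7 family, the let-7e reads gave 6458 and 6449 CPM. Mirlet7c-1 stood at 404 and 452 CPM from 2485 and 2403 reads. Mirlet7a-2, the lowest of the 9 genes, stood at 198 and 238 CPM from 1221 and 1266 reads. Let-7e therefore exceeded Mirlet7c-1 15.99-fold and 14.3-fold and Mirlet7a-2 32.5-fold and 27.1-fold. Mirlet7c-1 exceeded Mirlet7a-2 2.04-fold in replicate 1 and 1.90-fold in replicate 2.

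**Figure D2:**
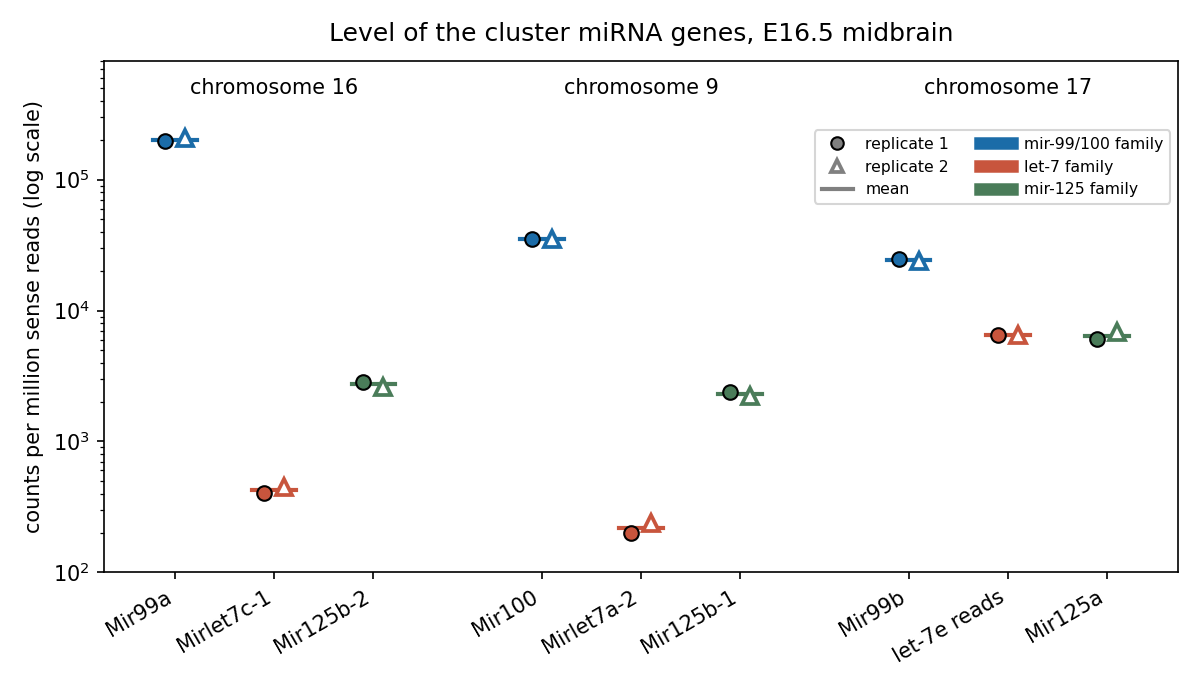
Level of each gene (CPM, log scale) in replicate 1 (circles) and replicate 2 (triangles), with the mean as a line, grouped by cluster and coloured by family. In each cluster the mir-99/100 gene is the highest, and the let-7 gene is far below its neighbours on chromosomes 16 and 9 (428 and 218 CPM) but level with Mir125a on chromosome 17 (6453 CPM).

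By counted reads, the levels within the clusters were far from equal, and their balance depended on the cluster. On chromosomes 16 and 9 the let-7 and mir-125 genes share their 5p miRNA with a further gene, and on chromosome 17 no gene does. How much the uncounted reads would change the balance was not tested. On chromosome 16, Mir99a exceeded Mirlet7c-1 486-fold in replicate 1 and 459-fold in replicate 2, and Mir125b-2 exceeded Mirlet7c-1 7.04-fold and 5.78-fold. On chromosome 9, Mir100 exceeded Mirlet7a-2 178-fold and 147-fold, and Mir125b-1 exceeded Mirlet7a-2 12.1-fold and 9.37-fold. On chromosome 17, Mir99b exceeded let-7e only 3.83-fold and 3.69-fold, and Mir125a over let-7e was 0.934 in replicate 1 and 1.06 in replicate 2. These ratios do not depend on scaling, as both genes come from the same library. As shares of the counted reads of their cluster, the mir-99/100 gene held 98.5% ± 0.12 on chromosome 16, 93.3% ± 0.20 on chromosome 9 and 65.3% ± 1.58 on chromosome 17 (SD, n = 2). The let-7 gene held 0.209% ± 0.0088, 0.578% ± 0.078 and 17.4% ± 0.048 of the same clusters, and the mir-125 gene 1.33% ± 0.13, 6.13% ± 0.28 and 17.3% ± 1.53.

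The order of the 9 genes was Mir99a, Mir100, Mir99b, let-7e, Mir125a, Mir125b-2, Mir125b-1, Mirlet7c-1 and Mirlet7a-2. Neighbours in this order did not overlap between the libraries, with 1 exception, let-7e (6453 ± 6.38 CPM) and Mir125a (6419 ± 545 CPM), which differed by less than the SD of Mir125a. With 2 libraries, the smallest two-sided p that exact permutation of unpaired values allows is 0.333. Pairing the genes by library leaves fewer arrangements still, so no level was tested against another. The 5 genes with a 5p miRNA of their own, from 6419 to 201995 CPM, all stood above the 4 whose 5p miRNA a further gene also encodes, from 218 to 2730 CPM. A read of a 5p miRNA encoded by a pair of genes maps to both places, and how many of the uncounted reads belong to these 4 genes was not tested. The levels of Mirlet7c-1, Mirlet7a-2, Mir125b-1 and Mir125b-2 are therefore levels of the counted reads. Their ratios to cluster neighbours and to genes of their own family, Mir125a over both miR-125b genes among them, hold for those reads only.

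Set against all genes with the same seed, the clusters supplied different parts of the counted reads of each family. No miRNA gene of the RefSeq table outside the clusters shared the mir-99/100 seed, so all 256516 and 266498 CPM with this seed came from Mir99a, Mir100 and Mir99b. For the mir-125 seed, the clusters gave 94.3% of the counted reads in replicate 1 and 94.4% in replicate 2. Mir351 gave the rest at 676 and 694 CPM, while Mir6367 and Mir6394 had 0 reads. For the let-7 seed, the clusters gave 5.61% and 5.13%. The other let-7 genes summed to 118892 and 132031 CPM, led by Mirlet7g at 67761 and 73408 CPM, Mirlet7i at 32156 and 35785 CPM, and Mirlet7d at 6470 and 7726 CPM. Of 11 such genes 10 were in the tables, Mirlet7f-1 was not analysed here, and Mir7k and Mir1961 had 0 reads. Reads that map to several places are missing from both sides of these shares. Inside the clusters this concerns Mirlet7c-1, Mirlet7a-2 and both miR-125b genes. Outside them it concerns Mirlet7c-2, Mirlet7a-1 and Mirlet7f-2, whose 5p miRNA a further gene also encodes. The shares and the order of the let-7 genes hold for counted reads only.

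How far the libraries differed at these genes was described by the log2 ratio of replicate 1 over replicate 2 with a two-sided exact binomial test, Benjamini-Hochberg adjusted over 412 genes with 10 or more reads in both libraries. The test compares 2 libraries and covers counting error only. PCR copies are not independent molecules, so its intervals are too narrow for a difference between pools. Of the 9 genes, 7 passed the adjusted threshold of 0.05, 3 of them higher in replicate 1 and 4 higher in replicate 2. Of all 412 genes 47.3% passed, 29.1% higher in replicate 1 and 18.2% higher in replicate 2. With RLE scaling 2 of the 9 passed as higher in replicate 1 and 6 in replicate 2, against 95 and 91 of all 412. With edgeR's exact test at a biological coefficient of variation (BCV) of 0.2, an assumed spread between pools, 0 of the 9 genes and 1.46% of all 412 passed, and 0 of the 9 had an unadjusted p under 0.05.

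The differences were small. The median size of the log2 ratio was 0.11 over the 9 genes, against 0.18 over all 412 genes and 0.13 over the 178 genes at or above the level of Mirlet7a-2. The largest, that of Mirlet7a-2, was -0.26 (95% exact interval -0.38 to -0.15, adjusted p = 1.9e-05), a 1.20-fold higher level in replicate 2. Mirlet7c-1 was also higher in replicate 2, with a ratio of -0.16 (-0.24 to -0.08, exact test, adjusted p = 0.00024). Let-7e had a ratio of 0.002 (-0.02 to 0.02, exact test, adjusted p = 0.92). Under other scalings let-7e passed as well, higher in replicate 2 like Mirlet7c-1 and Mirlet7a-2, with a ratio of -0.039 under TMM (exact test, adjusted p = 0.00087) and -0.046 under RLE (exact test, adjusted p = 4.6e-05). Of the let-7 genes outside the clusters 8 were tested, and all 8 passed the exact test as higher in replicate 2, with a median ratio of -0.28. Of all 412 genes 18.2% passed in that direction. With edgeR's exact test at a BCV of 0.2, the lowest unadjusted p of the 8 was 0.34, that of Mirlet7a-1.

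The mir-125 genes passed in opposite directions. Mir125b-2 and Mir125b-1 were higher in replicate 1, with ratios of 0.12 (0.09 to 0.15) and 0.11 (0.07 to 0.14) and adjusted p of 3.3e-13 and 8.4e-09 by the exact test. Mir125a was higher in replicate 2, with a ratio of -0.17 (-0.19 to -0.15, exact test, adjusted p = 2.7e-58). Of the mir-99/100 genes, Mir99a was higher in replicate 2 by the exact test (-0.080, interval -0.083 to -0.076), and Mir99b in replicate 1 (0.06, 0.05 to 0.07, adjusted p = 1.9e-24), a difference that RLE scaling left at 0.009 and short of the threshold. Mir100 had a ratio of 0.009 with an adjusted p of 0.090 by the exact test. Its sign turned under other scalings and it then passed as higher in replicate 2, with an adjusted p by the exact test of 2.1e-11 under TMM, 3.5e-17 under RLE and 0.034 with totals without Mir99a.

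Each cluster held genes that differed in their direction between the libraries. Mir125b-2 and Mir125b-1, on different chromosomes, had nearly the same ratio, but this did not hold for all paralogs. On chromosome 16, the log2 balance of Mir125b-2 over Mirlet7c-1 was 2.82 in replicate 1 and 2.53 in replicate 2, and on chromosome 9 that of Mir125b-1 over Mirlet7a-2 was 3.60 and 3.23. Across chromosomes, the balance of Mir125b-2 over Mir125b-1 was 0.24 and 0.23, a change of 0.02 between the libraries. The balance of Mirlet7c-1 over Mirlet7a-2 was 1.03 and 0.92. Other pairs showed the reverse. Within clusters, the balance of Mir99a over Mirlet7c-1 was 8.93 and 8.84, and that of Mir99b over let-7e 1.94 and 1.88. Between paralogs, that of Mir125b-2 over Mir125a was -1.08 and -1.38, and that of Mirlet7a-2 over let-7e -5.02 and -4.76. These are 2 libraries, and no test of such differences between pools was possible. Lists of other cells and of progenitors also differed between the libraries. The 7 epithelial genes, none at 0, summed to 1327 and 689 CPM in replicates 1 and 2. Among them Mir429 had 419 and 59.5 CPM and Mir203 had 627 and 546 CPM. The 6 progenitor genes, of the mir-17-92 cluster, summed to 33199 and 25383 CPM, and liver Mir122 had 74.9 and 55.3 CPM. The 4 blood genes, at 410 and 487 CPM, and endothelial Mir126a, at 23067 and 24810 CPM, were higher in replicate 2. The part of these lists in the ratios of the cluster genes was not tested.

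**Figure D3:**
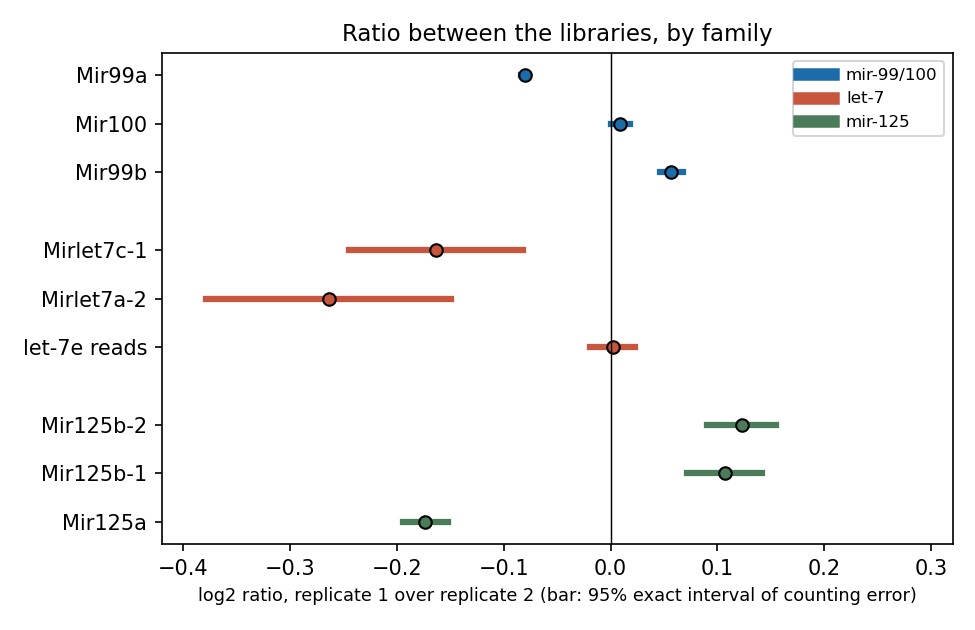
Log2 ratio of replicate 1 over replicate 2 for each gene (points) with its 95% exact interval for counting error (bars), ordered by family. Mirlet7c-1 (-0.16), Mirlet7a-2 (-0.26), Mir125a (-0.17) and Mir99a (-0.08) are below 0, and Mir125b-2 (0.12), Mir125b-1 (0.11) and Mir99b (0.06) above it.

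**Figure D4:**
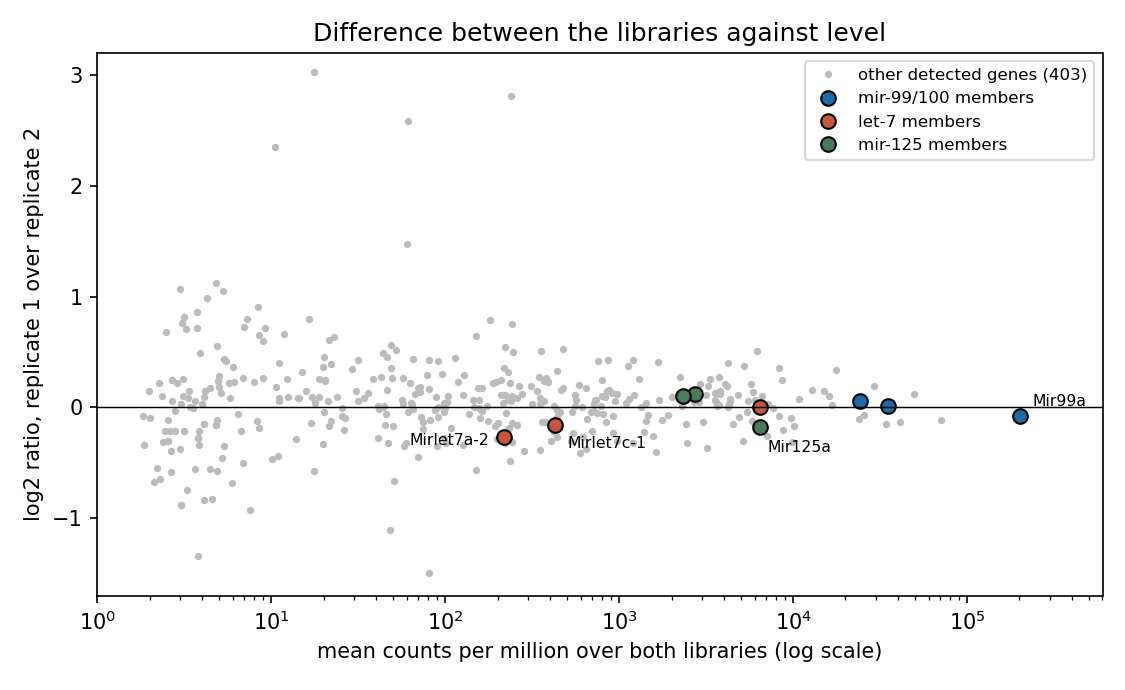
Log2 ratio of replicate 1 over replicate 2 against mean level (CPM, log scale) for the 412 genes with 10 or more reads in both libraries, with the 9 cluster genes in colour by family. The coloured points run from -0.26 to 0.12, and the grey points spread more widely below 100 CPM, over a whole range of -1.50 to 3.03.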

How the data were processed

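The authors deposited unnormalised counts for each miRNA gene in a table for each library. Assembly (mm10) and annotation (M4) are named in the text file beside each table. Aligner and counter: not given in the sources used here. The columns held counts on either strand, on the gene's strand and on the opposite strand, and the strands summed to the either-strand column for all 1973 genes. Rows without a gene were kept out of the totals. They held 54.9% and 55.8% of all reads in replicates 1 and 2. Reads mapping to several places, which are among them, made up 35.3% and 36.5% of all reads. This layout and split are like those of STAR's gene counts, which keep only reads with 1 place.

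Names and positions came from GENCODE M21 by identifier (1894 matched, 79 did not), and sequences from RefSeq on GRCm38.p6. All 9 genes had a 5p entry, that of Mirlet7a-2 being read under Mirlet7a-1 and found in its own hairpin. Hairpins of Mir125b-2 and Mir99b had no entry. CPM were counts over the summed sense-strand counts, without the let-7e reads, which were added to the total for shares of miRNA reads. Ranks take in the let-7e reads and no other opposite-strand reads. Log2 ratios had 0.5 reads added to each count. The exact binomial test used the summed counts as the expected share. It was run on simulated counts that held counting error only, so this run cannot show how the test behaves with spread between pools. In that run 60% of genes changed 1.3-fold and 88% of those changed 2-fold were recovered, and 0.47% of unchanged genes passed. Wilson and exact intervals were at 95%. Tools were Python 3.11.15, scipy 1.17.1, numpy 2.4.6, pandas 2.3.3, matplotlib 3.10.9, and edgeR 4.0.16 in R 4.3.3, used for TMM and RLE factors and for an exact test at a fixed BCV. Alternatives were other scalings, denominators, strands, count minimums, tests, and leaving out each replicate.

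The genes and lists were chosen with earlier results of these data known. Genes named were the 9 cluster genes, the genes next to each in the order of mean CPM, those that share a seed, and genes of the marker lists.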

Additional observations from a re-analysis of the deposited data

Results flagged for a closer look

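Reads that mapped to several places lay outside every comparison and numbered 4816290 in replicate 1 and 4391928 in replicate 2, which is 0.783 and 0.827 times the sense-strand miRNA reads. They stand out because they are a large signal that is not listed by gene, and 4 of the 9 cluster genes, Mirlet7c-1, Mirlet7a-2, Mir125b-1 and Mir125b-2, encode a 5p miRNA that a second gene also encodes. How many of these reads belong to those genes was not tested.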

How the results depend on the processing

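The order of the 9 genes by mean CPM was the same with TMM or RLE scaling, with either-strand counts and with all reads as the denominator. Without Mir99a in the cluster sum and in the total, the remaining genes held 9.71% of miRNA reads, against 27.8% with it. The share was 27.4% without the let-7e reads and 27.3% on either strand, and leaving out 1 replicate gave 27.3% and 28.3%. Of the 9 genes, the count that differed between the libraries was 7, with 9 under TMM, 8 under RLE and 8 with library totals without Mir99a, and it was 7 without a low-count filter and with a minimum of 50 reads. Among all genes tested 47.3% passed, with 45.4% under TMM, 45.1% under RLE and 45.4% with totals without Mir99a. Without the filter 26.6% passed, and with the minimum of 50 reads 59.7%. All 9 genes were above each minimum. Of all genes called, 120 were higher in replicate 1 and 75 in replicate 2, against 95 and 91 under RLE. With edgeR's exact test and a BCV set to 0.2, 0 of the 9 and 1.46% of all genes passed. Of the 9, 0 had an unadjusted p under 0.05, so these calls were made with counting error as the only spread and were lost at this assumed spread. No other BCV was tried. The log2 ratio of Mir100 turned to -0.032 under TMM, -0.039 under RLE and -0.011 with totals without Mir99a, and that of let-7e to -0.039, -0.046 and -0.018. Mir100 then passed as higher in replicate 2 under all 3, and let-7e under TMM and RLE but not with totals without Mir99a (exact test, adjusted p = 0.16). The scaling itself moved the median ratio of all genes from 0.05 to 0.01 under TMM and 0.007 under RLE. No test of the libraries was possible without a replicate. No paired analysis was possible because there was 1 group.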

Other observations

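Several miRNA genes of other kinds stood at the level of a cluster gene. Next to Mir100 were Mir487b, of the imprinted Dlk1-Dio3 domain, at 41396 ± 2594 CPM and Mirlet7i at 33970 ± 2566 CPM (SD, n = 2), and the range of Mirlet7i overlapped that of Mir100. Mir99b lay between Mir149 (25498 ± 892 CPM) and Mir126a, a miRNA of endothelial cells (23938 ± 1233 CPM). The let-7e reads came just below Mir322 (6652 ± 333 CPM), and Mir125a just above Mir20a of the mir-17-92 cluster (6174 ± 1527 CPM). Mir125b-2 stood between Mir379 (2876 ± 68.4 CPM) and Mir484 (2712 ± 174 CPM), and Mir125b-1 between Mir107 (2408 ± 173 CPM) and Mir449a (2283 ± 16.1 CPM), a miRNA of multiciliated cells. Mirlet7c-1 was next to Mir7-2 (437 ± 69.5 CPM) and Mir338, a miRNA of the oligodendrocyte lineage (422 ± 46.5 CPM). Mirlet7a-2 was next to Mir302d, a miRNA of pluripotent cells (219 ± 38.4 CPM), and Mir331 (214 ± 3.97 CPM).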
